A study of Homo sapiens with 14 samples.

Results

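HEXIM1 and 7 genes that work with it in the control of transcription elongation were followed through both RNA-seq experiments of the series. The members are the inhibitors HEXIM1 and HEXIM2, the kinase CDK9, its cyclin partners CCNT1 and CCNT2, the 7SK RNA binding proteins LARP7 and MEPCE, and the BET protein BRD2, which is not a subunit of the complex. They were chosen by name, and all 8 were found, among 16405 genes in the knockdown table and among 12325 genes in the RB98# table. HEXIM1 was chosen because it moved in opposite directions in the experiments, so its changes are given as a description with no test.

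Kasumi-1 is a myeloblast leukemia line derived from peripheral blood that carries a translocation between chromosomes 8 and 21. In the knockdown experiment, cells received lentivirus with a scramble control shRNA (shCtrl, n = 3) or with an shRNA against the RNA-binding protein gene RBPMS (shRBPMS, n = 3) for 48 h, and puromycin then selected them for a further 48 h. In the treatment experiment the same line was given DMSO as the control (n = 2) or the compound RB98# (n = 2), whose dose, exposure time and structure are not in the labels. Nothing in the labels tells if replicates were grown apart, and p-values may therefore reflect no more than technical spread.

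P-TEFb, the pair of CDK9 and a cyclin T, phosphorylates paused RNA polymerase II and the factors that hold it, and so lets the polymerase move into the gene body. Much of the cell's P-TEFb is held inactive by HEXIM proteins bound to 7SK RNA, which MEPCE caps and LARP7 protects. BET proteins such as BRD2 read acetylated histones, and HEXIM1 RNA is widely used as a marker of exposure to BET inhibitors.

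HEXIM1 (ENSG00000186834) lies on chromosome 17 from 45148502 to 45152101, plus strand, in GRCh38 as annotated by GENCODE v29. Its 1 annotated transcript is a single exon of 3600 bases, with no intron. HEXIM2 (ENSG00000168517) starts on the same strand, with 8598 bases between the end of HEXIM1 and its own start. The other members lie on other chromosomes. The promoters of HEXIM1 and of BRD2 are shown because these were the members with the largest rises after RB98#. Each window runs from 250 bases before to 50 bases after a RefSeq start in GRCh38.p14, plus strand, 5′ to 3′, and all 8 members had at least 1 window, 16 windows in all. Capitals mark TATAAA (a core promoter element), CCAAT (a binding site of the factor NF-Y), GGGCGG (a GC box) and GCATGCGC (a core of NRF1 sites), searched on both strands, where these letters were found.

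HEXIM1 promoter, chr17:45148225-45148524: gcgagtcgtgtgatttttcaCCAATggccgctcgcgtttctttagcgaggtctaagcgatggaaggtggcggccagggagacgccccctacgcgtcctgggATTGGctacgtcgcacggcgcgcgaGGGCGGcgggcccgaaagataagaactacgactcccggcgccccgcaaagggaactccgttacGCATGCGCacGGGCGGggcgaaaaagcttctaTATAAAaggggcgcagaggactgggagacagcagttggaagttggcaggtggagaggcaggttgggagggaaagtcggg

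BRD2 promoter, window 1 of 4, chr6:32968344-32968643: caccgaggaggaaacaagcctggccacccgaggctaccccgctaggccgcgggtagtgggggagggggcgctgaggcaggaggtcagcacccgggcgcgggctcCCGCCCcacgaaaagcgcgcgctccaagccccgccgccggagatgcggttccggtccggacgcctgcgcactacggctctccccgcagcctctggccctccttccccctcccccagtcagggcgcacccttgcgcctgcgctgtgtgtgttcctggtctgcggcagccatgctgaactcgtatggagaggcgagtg

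The HEXIM1 window held TATAAA at -29 relative to the start, CCAAT at -230 and -149, GGGCGG at -124 and -51, and GCATGCGC at -61. No overlap with one another was seen among these matches. HEXIM1 was the 1 member of 8 with TATAAA, which 11.5% of 35116 promoter windows of the same length held. GCATGCGC, held by 3.05% of windows, was found in 3 members, HEXIM1, CCNT2 and MEPCE. CCAAT, held by 34.6% of windows, was found in 6 members, and GGGCGG, held by 45.0%, in 7 members. Counted by window as these shares are, TATAAA was in 1 of 16 member windows, GCATGCGC in 3, CCAAT in 6 and GGGCGG in 11. The BRD2 window shown held GGGCGG alone, at -146. Of 3 further motifs searched, TGACGTCA (a CRE, in 1.85% of windows) was found in LARP7, CACGTG (an E-box, in 7.26%) in CCNT1 and MEPCE, and TGACTCA (an AP-1 site, in 4.95%) in none. A member with several windows had more bases searched than HEXIM1 had, and a match here describes letters, not binding.

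Total counts per library ranged from 24.03 to 34.4 M (knockdown) and from 13.9 to 15.3 M (RB98#), where M stands for 1000000. All 6 myeloblast markers looked for were in both tables, with a summed level of 13565 to 17641 CPM (counts per M counts, scaled by TMM factors). The listed erythroid and fibroblast markers were in neither table. EPCAM, the 1 epithelial marker found, was at 26.6 to 40.1 CPM in shCtrl and 36.1 to 65.4 CPM in shRBPMS. It was at 49.0 to 54.4 CPM in DMSO and 44.4 to 44.9 CPM in RB98#. The B cell markers found, 2 in the knockdown and 1 in the RB98# experiment, summed to 0.887 to 3.34 CPM. RBPMS, the target, was at 20.4, 7.24 and 7.39 CPM in shCtrl and at 2.53, 3.34 and 3.08 CPM in shRBPMS, and these libraries did not overlap. The labels put replicate 1 of both knockdown groups in one set and replicates 2 and 3 in another. Between replicates 2 and 3, count differences had a chi-square per degree of freedom of 3.01 in shCtrl and 3.03 in shRBPMS. Against replicate 1 of the same group it was 133 to 215. It was 2.24 between the DMSO libraries and 4.90 between the RB98# libraries. Mitochondrially encoded RNA took 8.17% to 8.39% of counts in the libraries of the RB98# experiment. In the knockdown it took 15.2% and 13.2% in both replicate 1 libraries and 6.20% to 6.95% in the others. Its part in the results was not tested. Because both groups hold libraries of both sets, a second fit, blocked on replicate number (the blocked fit), is given for the knockdown and for the difference between both effects where it changes a call. Summed levels of 2 T cell markers were 8.76 to 10.8 CPM in shCtrl and 2.04 to 2.74 CPM in shRBPMS, and that of CSF1R, the 1 monocyte marker found, 0.251 to 0.485 and 0.738 to 1.18 CPM. CSF1R was at 1.25 to 1.64 CPM in DMSO and at 0.597 to 0.614 CPM in RB98#, also without overlap, where the 1 T cell marker found was at 2.76 to 2.87 and 2.87 to 3.06 CPM. Their part in the results was not tested. In these bulk samples fewer cells of a type and less RNA per cell cannot be told apart.

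Per kilobase of annotated exon, BRD2, MEPCE and HEXIM1 had the highest levels among the members in control cells, and HEXIM2 the lowest. In shCtrl, BRD2 was at 41.3 ± 4.46 CPM per kb (SD, n = 3), MEPCE at 37.2 ± 6.07 and HEXIM1 at 36.4 ± 1.91. These ranges of mean ± SD overlapped, although the BRD2 libraries (38.7 to 46.5 CPM per kb) all lay above the HEXIM1 libraries (34.7 to 38.5). CDK9 (15.2 ± 2.22), LARP7 (13.8 ± 0.990), CCNT2 (13.5 ± 4.67) and CCNT1 (13.3 ± 2.46 CPM per kb) formed a second tier with no order beyond the spread. HEXIM2 was at 0.913 ± 0.423 CPM per kb, so that HEXIM1 was the far more abundant of these inhibitors' RNAs. The same tiers held in DMSO (n = 2), where MEPCE was at 41.0 ± 1.66, BRD2 at 38.3 ± 0.518 and HEXIM1 below both at 27.4 ± 0.805 CPM per kb. After RB98#, HEXIM1 stood highest, at 62.4 ± 2.52 CPM per kb, next to BRD2 at 58.4 ± 1.52 and MEPCE at 46.1 ± 1.55.

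**Figure D1:**
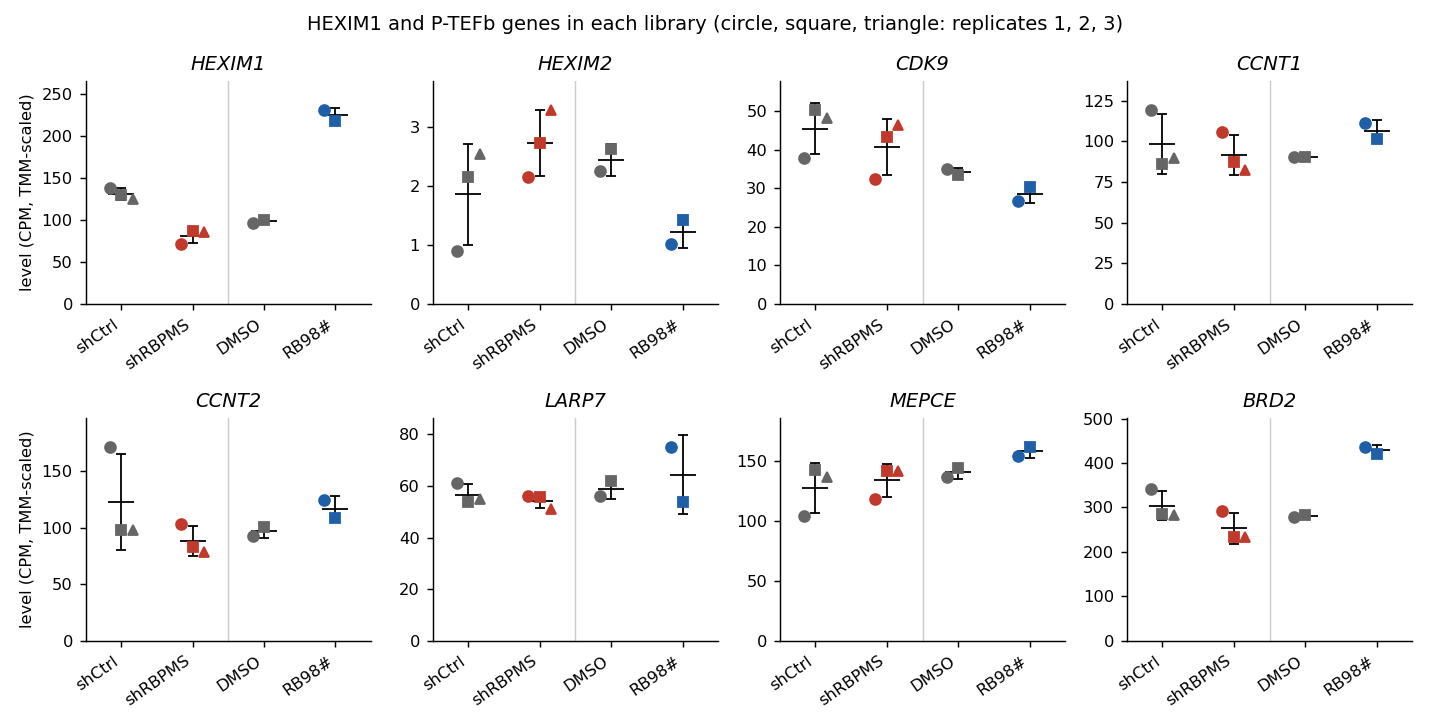
Level of each of the 8 genes in every library, in TMM-scaled CPM on linear axes that start at 0, each gene with its own axis. Points are libraries, with circles, squares and triangles for replicates 1, 2 and 3, and black lines are the mean ± SD of a group. HEXIM1 lies lower in shRBPMS and higher in RB98# than in the controls of the same experiment, and BRD2 stands above DMSO in both RB98# libraries.

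HEXIM1, the RNA-dependent inhibitor of P-TEFb, was lower after RBPMS knockdown and higher after RB98#. Its level was 138, 130.1 and 125 CPM in shCtrl replicates 1, 2 and 3, and 71.5, 87.4 and 85.9 CPM in shRBPMS. No shRBPMS library reached the lowest shCtrl value, and the lowest of all was shRBPMS replicate 1. The mean was 131 ± 6.89 CPM in shCtrl and 81.6 ± 8.77 CPM in shRBPMS, a ratio of 0.622 and a fitted log2 change of -0.68 (SE 0.13). Within the set of replicate 1 the log2 ratio was -0.95, and within the set of replicates 2 and 3 it was -0.56, so the size differed between the sets and the direction did not.

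In the treatment experiment HEXIM1 was at 96.5 and 100.6 CPM in DMSO and at 231 and 218 CPM in RB98#. Both RB98# libraries stood far above both DMSO libraries, with a mean of 225 ± 9.07 CPM against 98.6 ± 2.90 CPM. The ratio of means was 2.28, and the fitted log2 change was 1.19 (SE 0.06). Changes of the authors' deposited tables were -0.66 and 1.19 on the log2 scale for the knockdown and for RB98#. The RB98# change minus the knockdown change was 1.85 (SE 0.17) in a fit of all 10 libraries. No p is given for HEXIM1, because these directions chose it.

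HEXIM2, a paralog that can also inhibit P-TEFb on 7SK RNA, was scarce, with 15 to 92 counts per library. In the knockdown its level was 0.891, 2.15 and 2.54 CPM in shCtrl and 2.16, 2.74 and 3.29 CPM in shRBPMS. The groups overlapped, and shCtrl replicate 1 was the lowest library. This gave a log2 change of 0.54 (SE 0.40, adjusted p = 0.594 in edgeR's quasi-likelihood test with Benjamini-Hochberg adjustment over all genes, which is the test behind every adjusted p below unless another is named). With RB98#, HEXIM2 fell, from 2.25 and 2.64 CPM in DMSO to 1.02 and 1.42 CPM, with no overlap, a log2 change of -1.01 (SE 0.37, adjusted p = 0.0357). This call rests on few counts, and it was lost without DMSO replicate 1, DMSO replicate 2 or RB98# replicate 1 (adjusted p from 0.0708 to 0.196) and in DESeq2 (adjusted p = 0.159). HEXIM1 and HEXIM2 had changes of opposite sign in each experiment, although HEXIM2 did not pass the test in the knockdown.

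Of the 7 members other than HEXIM1, 0 passed an adjusted p of 0.05 in the knockdown, where 1.97% of all 16215 genes tested did. At an unadjusted p under 0.05, 2733 genes and 0 of the 7 members passed, and DESeq2 and limma-voom called 0 members too. In the blocked fit 28.1% of all genes passed (13.3% higher, 14.8% lower), and 2 of the 7 members did, CCNT2 and BRD2, both lower. With replicates 2 and 3 of each group summed and the label set as a term, 16.3% of genes and 1 member, CCNT2, passed, and BRD2 did not (adjusted p = 0.179). With RB98#, 6 of the 7 passed, 4 higher and 2 lower, against 37.8% of all 12324 genes tested (20.5% higher, 17.3% lower). LARP7 was the exception. With library totals in place of TMM factors 3 passed, 1 higher (BRD2) and 2 lower (HEXIM2 and CDK9), against 40.3% of all genes (13.7% higher, 26.6% lower), and the median of all genes moved to -0.10. The authors' deposited table gives 2 of these members an adjusted p under 0.05 with RB98#, BRD2 (6.79e-22) and CCNT2 (0.0353), and 0 in the knockdown. Libraries of these groups did not overlap for the same 6 members with RB98#, against 68.3% of all genes, and overlapped for all 7 in the knockdown, against 25.9% of genes without overlap. The median log2 change of the 7 members was -0.10 in the knockdown and 0.17 with RB98#, beside 0.02 and 0.00 over all genes tested.

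**Figure D2:**
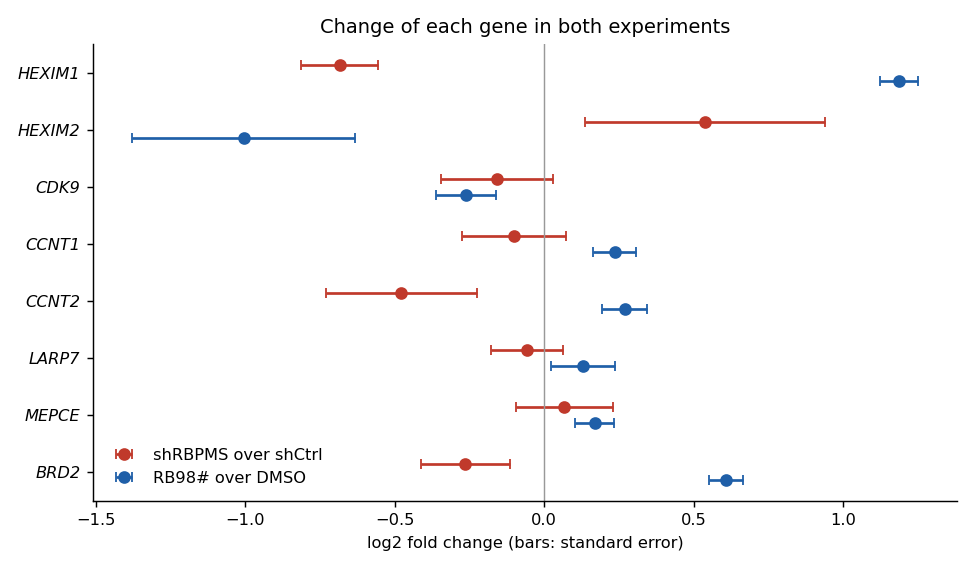
Log2 fold change of each gene, shRBPMS over shCtrl in red and RB98# over DMSO in blue, with bars for 1 standard error. HEXIM1 shows the widest gap between the experiments, with -0.68 and 1.19, while CDK9 lies left of 0 in both, at -0.16 and -0.26.

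CDK9, the kinase of the complex, did not pass the test in the knockdown and fell with RB98#. In the knockdown it was at 37.9, 50.3 and 48.3 CPM in shCtrl and at 32.5, 43.4 and 46.5 CPM in shRBPMS. The groups overlapped, and in both the replicate 1 library was the lowest. CDK9 differed by -0.16 on the log2 scale (SE 0.19, adjusted p = 0.776). With RB98#, CDK9 fell from 35.02 and 33.6 CPM to 26.8 and 30.4 CPM, a log2 change of -0.26 (SE 0.10, adjusted p = 0.0420). That call was lost without either DMSO replicate or without RB98# replicate 1 (adjusted p from 0.151 to 0.282), and in DESeq2 (adjusted p = 0.147).

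CCNT1 encodes cyclin T1, the main partner of CDK9. It was at 119, 86.0 and 89.9 CPM in shCtrl and at 105, 87.2 and 82.5 CPM in shRBPMS. Replicate 1 was the highest library in each group, and the groups overlapped. On the log2 scale CCNT1 differed by -0.10 (SE 0.17, adjusted p = 0.864). With RB98# it rose from 90.6 and 90.1 CPM to 111 and 101 CPM, a log2 change of 0.24 (SE 0.07, adjusted p = 0.0109). The call was lost without either DMSO replicate or without RB98# replicate 1 (adjusted p from 0.0616 to 0.153), and with library totals in place of TMM factors (0.13, adjusted p = 0.134).

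CCNT2 encodes cyclin T2, the alternative partner. In the knockdown it was at 172, 98.5 and 98.1 CPM in shCtrl and at 103, 82.7 and 78.6 CPM in shRBPMS. The shCtrl replicate 1 library stood far above the rest, and shRBPMS replicate 1 lay above shCtrl replicates 2 and 3, so the groups overlapped. CCNT2 differed by -0.48 on the log2 scale (SE 0.25, adjusted p = 0.413), and in the blocked fit CCNT2 fell by 0.44 (SE 0.10, adjusted p = 0.0180), a call that held on the summed libraries (-0.51, adjusted p = 0.0342). Within the label sets the log2 ratio was -0.74 and -0.29. With RB98# CCNT2 rose, from 92.5 and 101 CPM to 125 and 109 CPM, a log2 change of 0.27 (SE 0.07, adjusted p = 0.00595). This call was lost without DMSO replicate 1 (adjusted p = 0.190) or RB98# replicate 1 (adjusted p = 0.0666) and with library totals in place of TMM factors (0.17, adjusted p = 0.0806).

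LARP7, which binds the 3′ end of 7SK RNA and keeps it stable, passed the test in neither experiment. It was at 61.1, 53.6 and 54.9 CPM in shCtrl and at 56.1, 55.9 and 51.0 CPM in shRBPMS, a log2 change of -0.06 (SE 0.12, adjusted p = 0.892). In the treatment experiment it was at 56.0 and 61.8 CPM in DMSO and at 75.2 and 53.6 CPM in RB98#. The RB98# libraries lay on either side of both DMSO libraries. The log2 change was 0.13 (SE 0.11, adjusted p = 0.361), and it was -0.15 without RB98# replicate 1 and 0.35 (adjusted p = 0.000934) without RB98# replicate 2.

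MEPCE, the methyltransferase that caps 7SK RNA, did not pass the test in the knockdown and rose with RB98#. It was at 104, 142 and 136 CPM in shCtrl and at 118, 141.5 and 141 CPM in shRBPMS. Replicate 1 was the lowest in both groups, and the log2 change was 0.07 (SE 0.16, adjusted p = 0.908). With RB98# it rose from 136 and 144 CPM to 154 and 161 CPM, a log2 change of 0.17 (SE 0.06, adjusted p = 0.0408). The rise was small beside that of HEXIM1, and its call was lost without either DMSO replicate or without RB98# replicate 2 (adjusted p from 0.0587 to 0.442), with library totals (0.07, adjusted p = 0.417) and in DESeq2 (adjusted p = 0.104). The 7SK RNA gene itself, RN7SK, was in the RB98# table, where its log2 change was 0.07 (adjusted p = 0.775), and was not found in the knockdown table.

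BRD2, a BET protein that reads acetylated histones, was the member other than HEXIM1 with the lowest adjusted p with RB98#. It was at 278 and 284 CPM in DMSO and at 436 and 420.5 CPM in RB98#. The groups stood well apart, with means of 281 ± 3.80 and 428 ± 11.2 CPM, a ratio of 1.52. The log2 change was 0.61 (SE 0.06, adjusted p = 6.49e-09), and BRD2 passed the test in all 10 alternatives run for it. In the knockdown BRD2 was at 341, 285 and 284 CPM in shCtrl and at 292.5, 233 and 232 CPM in shRBPMS. Each shRBPMS library lay below the shCtrl library of its number, but shRBPMS replicate 1 lay above shCtrl replicates 2 and 3. The log2 change was -0.26 (SE 0.15, adjusted p = 0.448), and in the blocked fit BRD2 fell by 0.27 (SE 0.06, adjusted p = 0.0140), a call that was lost on the summed libraries (-0.25, adjusted p = 0.179). Within the label sets the log2 ratio was -0.22 and -0.29.

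The difference between both effects was tested in 1 fit of all 10 libraries, in which 8.15% of 12126 genes passed. BRD2 was the 1 of 7 members that passed, with an RB98# change 0.86 above the knockdown change (SE 0.19, adjusted p = 0.0304). This call was lost without shRBPMS replicate 2 or 3 or without any 1 library of the RB98# experiment, with adjusted p from 0.0720 to 0.142 and a difference of 0.81 to 0.89. CCNT2 differed by 0.74 (SE 0.35, adjusted p = 0.247) and HEXIM2 by -1.56 (SE 0.60, adjusted p = 0.156). In the blocked fit, where 40.8% of genes passed, CCNT2 (0.69, adjusted p = 0.00458), HEXIM2 (-1.61, adjusted p = 0.0100) and CCNT1 (0.31, adjusted p = 0.0321) passed as well. The blocked fit counts knockdown replicates 2 and 3 as separate libraries, and the difference was not fitted with them summed. CDK9, LARP7 and MEPCE differed by -0.12, 0.17 and 0.08, with adjusted p of 0.836, 0.702 and 0.868.

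Exons of some members overlap genes on the other strand that are also in the tables, and the sources used here do not state whether counting used strand. These pairs are CCNT2 with CCNT2-AS1, LARP7 with ZGRF1 and AC106864.1, BRD2 with HLA-DMA, and, in the knockdown table, MEPCE with ZCWPW1. Reads of such pairs cannot be told apart without strand. No overlapping gene in the tables was found for HEXIM1, HEXIM2, CDK9 or CCNT1.

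Around these members, 86 genes of the elongation machinery in 11 lists were examined. In the knockdown, 0 of 81 tested passed in edgeR and 3 in DESeq2 (which called 8.26% of all genes), 9 had an unadjusted p under 0.05, and the median log2 change was -0.01. In the blocked fit 14 were higher and 11 lower, and with replicates 2 and 3 summed 5 were higher and 6 lower. Single pathway genes are given below from the blocked fit and not from the summed libraries. With RB98#, 18 of 82 tested were higher and 12 lower, with a median of 0.03, while library totals in place of TMM factors gave 10 higher and 24 lower, against 13.7% and 26.6% of all genes. Of the genes named from these lists for RB98#, 11 passed in all 10 alternatives: AFF4, ELL2, SERPINI1, ZCCHC24, SYNCRIP, CDC73, CTDSP1, POLR2A, POLR2H, INTS7 and INTS8. The others lost their call in 1 to 5 of them. Those shares are to be read beside the 1.97%, 28.1%, 16.3% and 37.8% of all genes given above. In the difference between both effects 0 of 81 pathway genes passed in edgeR, 9 had an unadjusted p under 0.05, and 6 passed in DESeq2 (which called 14.8% of all genes).

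The super elongation complex, which carries P-TEFb together with further elongation factors, held 2 of the larger called rises with RB98#. Of 7 tested members, 3 rose and 0 fell, with a median of 0.18. Among all genes tested 20.5% passed higher and 17.3% lower, with a median of 0.00. ELL2, an elongation factor of the complex, was at 5.53 and 5.90 CPM in DMSO and at 15.7 and 16.4 CPM in RB98#, a log2 change of 1.49 (SE 0.16, adjusted p = 6.30e-08). AFF4, the scaffold that binds cyclin T1, was at 84.1 and 83.6 CPM in DMSO and at 155 and 137 CPM in RB98#, a log2 change of 0.80 (SE 0.07, adjusted p = 3.40e-09). In both genes the RB98# libraries lay above the DMSO libraries. In the knockdown the log2 change of AFF4 was -0.58 (SE 0.33, adjusted p = 0.450), and in the blocked fit AFF4 fell by 0.51 (SE 0.11, adjusted p = 0.0148). Its difference between both effects was 1.37 (adjusted p = 0.103), and 1.30 in the blocked fit (adjusted p = 0.000143). In the blocked fit of the knockdown, 13.3% of all genes were higher and 14.8% lower. There EAF2, a partner of ELL proteins, was 1 of 2 members of this list that rose, by 0.92 (SE 0.17, adjusted p = 0.00892). The other was MLLT1, which encodes ENL (0.56, adjusted p = 0.00148), and EAF1 fell beside AFF4 (-0.48, adjusted p = 0.00919).

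BRD3, a BET protein like BRD2, did not pass with RB98# (-0.10, adjusted p = 0.283). Of 4 genes listed as candidate RNA markers of BET inhibition beside HEXIM1, 2 rose with RB98# and 1 fell. Among all genes 20.5% passed higher and 17.3% lower. The remaining marker, H2BC21, did not pass with RB98# (-0.21, adjusted p = 0.733). SERPINI1, which encodes neuroserpin, rose by 1.51 (SE 0.39, adjusted p = 0.00349) on 14, 14, 45 and 29 counts in DMSO replicates 1 and 2 and RB98# replicates 1 and 2. ZCCHC24 rose from 10.7 and 11.1 CPM to 21.3 and 23.5 CPM (1.04, SE 0.13, adjusted p = 9.68e-07). ZMYND8, a chromatin reader, fell slightly, by 0.17 (SE 0.07, adjusted p = 0.0492). In the blocked fit of the knockdown, ZMYND8 fell by 0.65 (SE 0.09, adjusted p = 0.00363), and ZCCHC24 rose by 0.51 (adjusted p = 0.0308). H2BC21, a histone gene, rose by 1.50 in the same fit (SE 0.29, adjusted p = 0.00996), at 0.40 to 1.25 CPM in shCtrl and 0.715 to 4.36 CPM in shRBPMS, which overlapped.

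Lists further from P-TEFb, here and in the next paragraph, showed calls in both directions with RB98#, where 20.5% of all genes passed higher and 17.3% lower. Among 6 tested genes for 7SK RNA and the proteins of released 7SK, 1 fell, SYNCRIP, by 0.31 (SE 0.06, adjusted p = 0.000114). Of 9 genes for release and recruitment of P-TEFb, 1 rose, the phosphatase gene PPM1A (0.33, adjusted p = 0.00311), and 1 fell, the splicing factor gene SRSF2 (-0.15, adjusted p = 0.0234). Of 6 genes of the pausing factors DSIF and NELF, 2 fell, NELFE (-0.22, adjusted p = 0.0464) and SUPT4H1 (-0.26, adjusted p = 0.0251). SUPT4H1 was at 51.3 to 52.6 CPM in DMSO but at 0.0856 to 0.713 CPM in shCtrl, a gap between tables that none of the members had.

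Of 7 genes of the PAF1 complex and SPT6, 1 rose, CDC73 (0.41, SE 0.08, adjusted p = 0.000386). Of 9 other kinase and cyclin genes acting on the polymerase tail, 3 rose, among them CDK19 (0.36, adjusted p = 0.00781) and MNAT1 (0.33, adjusted p = 0.0326), and 1 fell, CCNH (-0.28, adjusted p = 0.0202). Of 6 tail phosphatase genes, CTDSP1 fell by 0.54 (SE 0.09, adjusted p = 3.79e-05), CTDSP2 fell by 0.16 (adjusted p = 0.0418) and RPAP2 rose by 0.23 (adjusted p = 0.0410). CTDSP1 and CTDSP2 also fell in the blocked fit of the knockdown, by 0.56 and 0.73 (adjusted p = 0.00187 and 0.00232). Of 12 polymerase subunit genes, 3 rose and 2 fell, with POLR2A, the largest subunit, at 331 and 306 CPM in DMSO and 390.2 and 434 CPM in RB98# (0.37, SE 0.06, adjusted p = 4.00e-05). POLR2C rose by 0.20 (adjusted p = 0.0289), while POLR2H fell by 0.42 (adjusted p = 0.000308) and POLR2D by 0.21 (adjusted p = 0.0193). Of 14 Integrator genes, 3 rose and 2 fell, with INTS7 (0.44, adjusted p = 5.96e-05) and INTS8 (0.39, adjusted p = 0.000998) highest and INTS9 (-0.30, adjusted p = 0.0175) and INTS3 (-0.25, adjusted p = 0.0171) lowest.

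**Figure D3:**
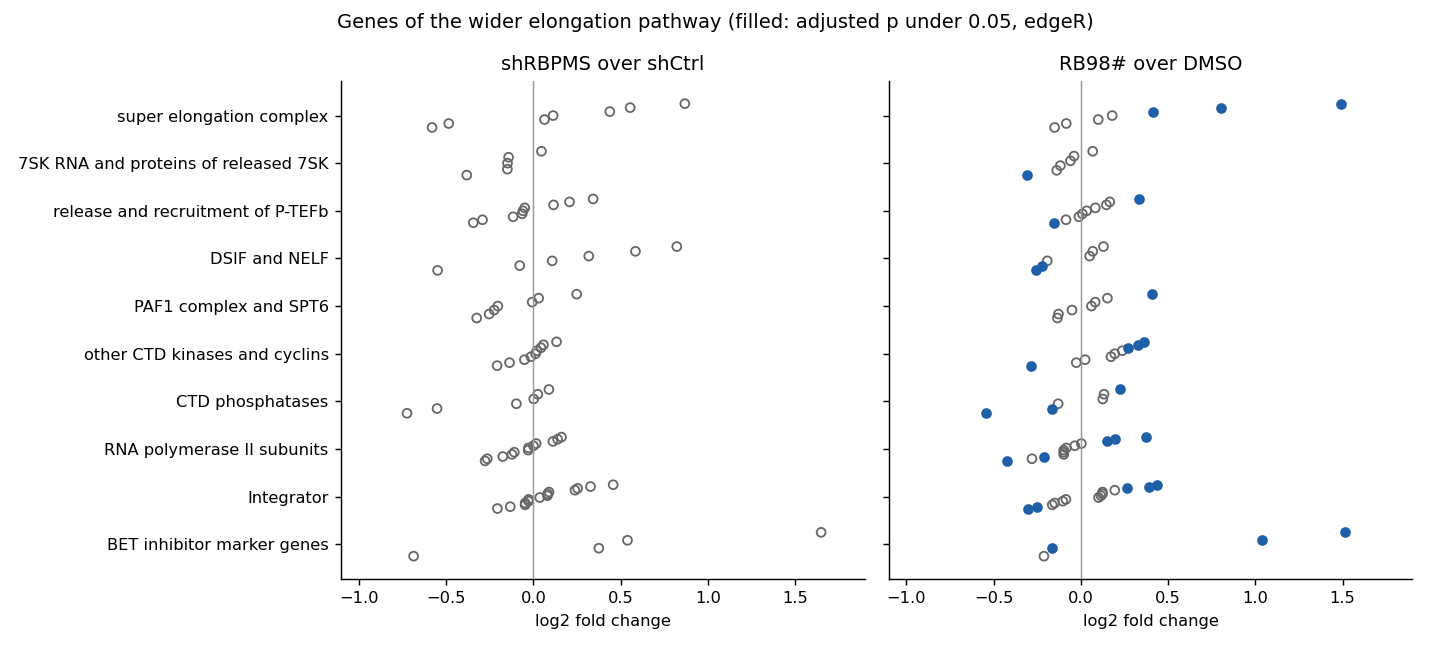
Log2 fold change of the tested genes of the pathway lists, BET proteins left out, with shRBPMS over shCtrl on the left and RB98# over DMSO on the right. Each point is a gene, filled where the adjusted p is under 0.05 in edgeR without a block. No point is filled on the left, and the filled points on the right lie on both sides of 0, with ELL2 at 1.49 and SERPINI1 at 1.51 farthest to the right.

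The genes whose pattern was most like that of HEXIM1 were ranked by the root mean square difference of log2 CPM, taken relative to the controls of the same experiment, over 10 libraries and 9935 genes. The closest were ANKRD33B (0.114), RNF122 (0.124), DCUN1D3 (0.137), KLF9 (0.141) and ST3GAL1 (0.144), where the median gene was at 0.703. RNF122 encodes a RING finger protein, DCUN1D3 a regulator of cullin neddylation, KLF9 a zinc finger transcription factor and ST3GAL1 a sialyltransferase. Chosen this way, their log2 changes are a description. They were -0.69, -0.66, -0.75, -0.51 and -0.61 in the knockdown and 1.18, 0.98, 0.94, 1.17 and 1.35 with RB98#, in the order named. Among the members, BRD2 came closest to HEXIM1, at rank 200 with a difference of 0.382, then CCNT2 at rank 841 (0.497) and CCNT1 at rank 1744 (0.565). CDK9 was the farthest, at rank 5526 (0.726), and HEXIM2 lay below the minimum level for this ranking.

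**Figure D4:**
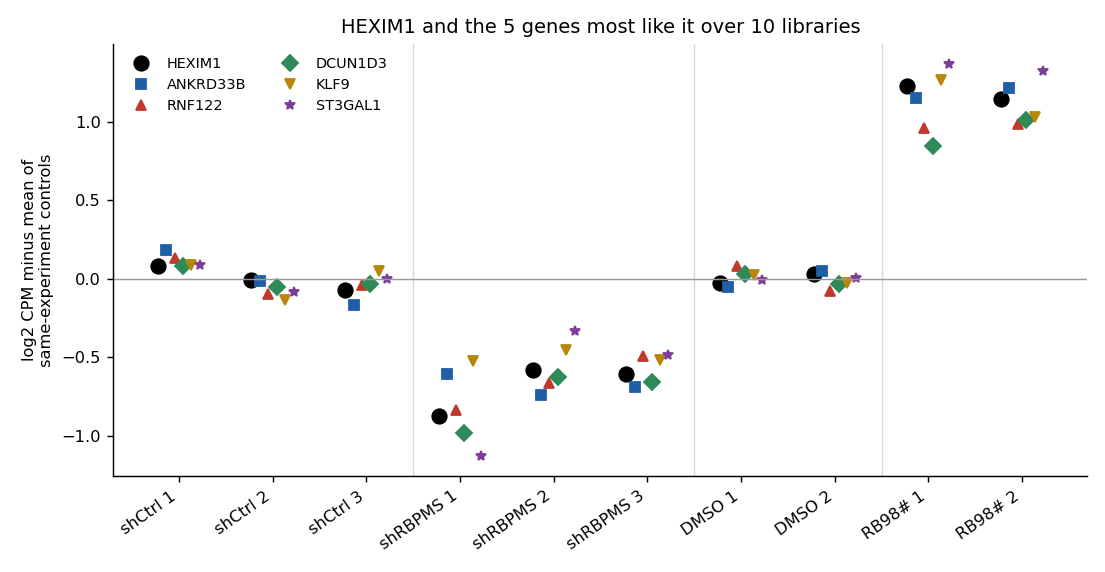
Log2 CPM of HEXIM1 and of the 5 genes most like it in each of the 10 libraries, minus the mean of the control libraries of the same experiment. Points are single libraries. All 6 genes lie below 0 in the 3 shRBPMS libraries and above 0 in both RB98# libraries.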

How the data were processed

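Total RNA of 10 libraries was analysed, and 4 RNA immunoprecipitation and m6A libraries were not analysed here. Per the submitters' processing notes, fastp 0.22.0, HISAT2 2.2.1, featureCounts 2.0.1, DESeq2 1.32.0 and StringTie were used with hg38/GRCh38, with no role or order given. Per the file headers, the columns used hold raw counts per gene, deposited without normalisation. The deposited log2 fold change and adjusted p-value columns hold the authors' own comparison. Of the RB98# table's 12437 lines, 112 repeated lines were dropped by identifier. The tables' 10 other columns of per-library values were left out.

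The members and gene lists were chosen with earlier results of these data known. Each experiment was fitted alone with edgeR 4.0.16 (limma 3.58.1, R 4.3.3): TMM factors, the default low-count filter, group alone as the design, a two-sided quasi-likelihood test, and Benjamini-Hochberg adjustment over all genes at 0.05. The SE is the log2 fold change over the square root of F. The difference of both effects came from a 4-group fit. Each pathway list names up to 2 genes per direction with adjusted p under 0.05 and the largest change, of which 1 with RB98# is not reported here. In the knockdown this rule names none. The pathway genes given from its blocked fit do not follow the rule and were chosen after their values were seen, as were BRD3, RN7SK and CSF1R. Fits were tested on simulated data. These had the same spread setting for every gene and no label sets, so they do not cover the set difference of the knockdown. Alternatives were other scaling factors, no filter, DESeq2 1.42.0, limma-voom, a replicate block, label sets, and leaving out each library.

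In the knockdown, same-numbered libraries shared deviations from their group means, with correlations of 0.852, 0.772 and 0.800 over 10606 genes. Replicates 2 and 3 matched each other across groups about as closely (0.776 and 0.767). The correlations thus follow the label sets and do not show that the numbers pair replicates 2 and 3. The depth of at least 13.9 M counts leaves HEXIM2 with few counts.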

Additional observations from a re-analysis of the deposited data

Results flagged for a closer look

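The log2 change of HEXIM1 with RB98# lay 1.85 (SE 0.17) above its log2 change in the knockdown. HEXIM1 is listed here without a cutoff on this difference, but it was chosen because its values moved in opposite directions. All 3 shRBPMS libraries were lower than each shCtrl library, and both RB98# libraries were higher than both DMSO libraries. The difference was not tested, since the opposite directions chose the gene. The log2 change of BRD2 with RB98# lay 0.86 (SE 0.19) above its change in the knockdown. That difference passed the test (adjusted p = 0.0304 in edgeR), but the call was lost in 6 of 16 alternatives. BRD2 was higher than both DMSO libraries in 2 of 2 RB98# libraries. In the knockdown its libraries overlapped between groups, with log2 ratios of -0.22 and -0.29 within the label sets. The experiments differ in agent, sequencing depth and number of libraries, which cannot be told apart here.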

How the results depend on the processing

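The knockdown calls depended on how the label sets were treated and on single libraries. Against 320 genes, 0 members other than HEXIM1 and 0 pathway genes, edgeR called 4549, 2 and 25 with the replicate block, 5810, 2 and 33 with the label set as a term of the model, 6830, 2 and 43 in label set 2 alone, and 2671, 1 and 11 with replicates 2 and 3 summed beside that term. DESeq2 called 1339 genes, 0 members and 3 pathway genes. Leaving out 1 library gave 0 to 322 genes: 322 without shCtrl replicate 1, 37 without shRBPMS replicate 1, 2 without shCtrl replicate 2, and 0 without shCtrl replicate 3, shRBPMS replicate 2 or shRBPMS replicate 3 (2010, 1866 and 2002 genes at an unadjusted p under 0.05). Members and pathway genes stayed at 0.

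With RB98#, against 4659 genes, 6 members and 30 pathway genes, library totals gave 3 members, and DESeq2 gave 3 members and 17 pathway genes. Leaving out 1 library gave 2731 to 5028 genes, 1 to 6 members and 12 to 37 pathway genes, with the fewest without a DMSO replicate (2843 and 2731 genes). A lone library left in a group is assumed to vary like the other group. Library totals in place of TMM factors moved the median of all genes by -0.10 and the share of calls that were higher from 54.3% to 34.03%. The replicate numbers of this experiment share no deviations (correlation -0.0585), and the replicate block called 4430 genes, 5 members (MEPCE was lost, adjusted p = 0.0864) and 24 pathway genes.

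For the difference between both effects, against 988 genes, 1 member and 0 pathway genes, the replicate block gave 4951, 4 and 26, and DESeq2 gave 1796 genes and 6 pathway genes. Leaving out 1 library gave 92 to 1541 genes, 0 to 1 members and 0 to 3 pathway genes, with 92 to 222 genes without any 1 library of the RB98# experiment. The share of calls that were higher was 58.8%, and 46.03% with library totals.

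HEXIM1 kept its direction in all alternatives run, at -0.55 in label set 2 alone and 1.09 with RB98# under library totals. The sign turned for CCNT1 in the knockdown without shCtrl replicate 1 (0.047, in a range of -0.21 to 0.047 over the fits that left out 1 library), for MEPCE in the knockdown without the same library (-0.070, range -0.070 to 0.15), for LARP7 without RB98# replicate 1 (RB98#: -0.15, range -0.15 to 0.35, and the difference: -0.098, range -0.098 to 0.40), and for MEPCE in the difference with library totals (-0.025) and without shCtrl replicate 2 or shRBPMS replicate 1 (range -0.0086 to 0.21). None of these values had passed its test. The causes were not tested. Depth limits HEXIM2 most, at 15 to 92 counts per library.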
